A study of Mus musculus with 6 samples.

Results

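The B cell receptor complex and its coreceptors were followed through 9 genes, Cd79a, Cd79b, Ms4a1, Cd22, Fcrl1, Cr2, Fcer2a, Blk and Blnk. Every probe whose accession mapped to one of these symbols in RefSeq was kept, which gave 12 probes of 8 genes out of 41006 probes on the array. Cd79a, Cd79b, Ms4a1 and Blk had 2 probes each, and Cd22, Fcrl1, Fcer2a and Blnk had 1 each. Cr2 matched no probe and was not analysed here. The study compared adult mice of 2 knockout strains, TB-TNF KO double (TB_TNF_KO) and B-TNF KO (B_TNF_KO), with 3 arrays per strain, and its title asks which genes TNF from T cells and from B cells regulates in naive lymph nodes. Each array carried Cy3-labelled RNA from the mesenteric lymph nodes of 3 pooled mice of one strain beside a Cy5-labelled reference made from 11 mouse cell lines, a B-lymphocyte and a T-lymphocyte line among them. All mice were naive, and both strains carry the B-TNF knockout by their labels. The driver of the deletion in each cell type is not given in the sources used here, and no wild-type group was analysed here, so every difference below sets one knockout against the other.

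The B cell receptor is a membrane immunoglobulin held with the CD79A and CD79B chains, whose cytoplasmic tails carry the tyrosine motifs that Src family kinases such as BLK phosphorylate when antigen binds. The adaptor BLNK then links the activated kinase SYK to BTK and phospholipase C gamma. CR2 lowers the amount of antigen needed, CD22 recruits phosphatases that dampen the signal, and MS4A1 (CD20), FCRL1 and FCER2A (CD23) are further surface proteins of B cells. In lymph nodes these transcripts come largely from follicular B cells. In whole nodes, fewer cells of a type and less RNA per cell cannot be told apart.

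The probes are 60 bases long, and the ones below are those on which the group comparison turns or that sit beside them for the same gene. Capitals mark the 41-base stretch that both Cd79a probes hold, and in Blk the letters ACTTACCT. The Cd79a probes are therefore not independent readings of that gene, whereas the Blk probes share no run of 20 bases.
Cd79a A_66_P120987: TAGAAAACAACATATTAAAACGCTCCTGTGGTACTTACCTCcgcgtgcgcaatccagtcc
Cd79a A_66_P138674: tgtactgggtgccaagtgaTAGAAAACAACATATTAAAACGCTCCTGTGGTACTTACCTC
Cd79b A_66_P110475: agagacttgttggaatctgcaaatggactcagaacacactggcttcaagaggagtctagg
Blk A_66_P125706: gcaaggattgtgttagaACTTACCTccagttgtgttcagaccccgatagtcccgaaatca
Blk A_66_P109955: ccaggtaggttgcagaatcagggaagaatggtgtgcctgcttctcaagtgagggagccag
Fcrl1 A_66_P103146: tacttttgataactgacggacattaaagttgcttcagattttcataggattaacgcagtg
The other 6 member probes are not printed. Which exon or UTR a probe reads was not determined here, since no genome sequence was used. In GRCm38.p6 the RefSeq table puts Cd79a and Cd22 on chromosome 7, Cd79b on 11, Ms4a1 and Blnk on 19, Blk on 14, Fcrl1 on 3 and Fcer2a on 8. GC content ran from 35.0% in the Fcrl1 probe to 56.7% in a Cd79b probe, beside a median of 43.3% over all probes.

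Values are log2 ratios of node sample over reference unless a channel is named, differences are TB_TNF_KO minus B_TNF_KO with the SE of the limma fit, and adjusted p-values are Benjamini-Hochberg values over 40778 probes with a threshold of 0.05. TB_TNF_KO arrays 1 and 2 differed by about the noise of their reference channels and entered as 1 sample, so n was 2 in TB_TNF_KO and 3 in B_TNF_KO. The SD of the sample channel difference between these arrays was 0.952 times that of the reference channel, against 1.06 to 1.59 times for the 14 other pairs of arrays, and 20 probes differed over 2-fold in the sample channel, against 35 to 270. The library labelled TB_TNF_KO replicate 1 is male by its label, but its log2 ratio for the Y-linked gene Eif2s3y was -2.81, close to the -2.84 of the female-labelled replicate 2, while the other libraries lay between 0.59 and 1.83. The brightest Tnf probe had log2 ratios of -0.66, -0.63 and -0.84 in TB_TNF_KO and 0.19, 0.36 and 0.49 in B_TNF_KO, and whether it lies in the deleted part is not known here. Median sample intensity per array was 144 to 166 in TB_TNF_KO and 159 to 203 in B_TNF_KO, and median reference intensity was 315 to 362 in TB_TNF_KO and 280 to 283 in B_TNF_KO. The groups were extracted from the scans on separate days, so extraction day and group cannot be told apart. All 12 member probes were well above background on the arrays and none was saturated. That the pools came from separate animals rests on the labels alone, and the values above do not show it for TB_TNF_KO arrays 1 and 2.

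No member passed the adjusted threshold in the log ratio, where the smallest adjusted p in limma was 0.073 for Blk. Of the 12 probes, 7 were lower and 5 higher in TB_TNF_KO, where 54.9% of all probes were lower and 45.1% higher. At an unadjusted p under 0.05 in limma 3 were lower, for Cd79a, Blk and Fcrl1, and 0 higher. Over all probes tested 0.0147% were lower and 0% higher at the adjusted threshold, and 11.1% were lower and 5.02% higher at the unadjusted one. In 5 member probes, those of Cd79a (both), Blk, Blnk and Fcrl1, the 3 TB_TNF_KO values were all below the 3 B_TNF_KO values, as they were in 16.9% of all probes. The reverse held for 0 members and 10.6% of all probes. The member median was -0.08, beside -0.01 over all probes. It was -0.24 without TB_TNF_KO replicate 3 (11 of 12 lower), -0.15 without B_TNF_KO replicate 1 and -0.00081 without B_TNF_KO replicate 3 (6 lower and 6 higher). With the replicate number as a block over the 6 arrays 4 member probes passed as lower in limma, both of Cd79a, 1 of Blk and that of Fcrl1, where 2533 of all probes were lower and 738 higher.

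**Figure D1:**
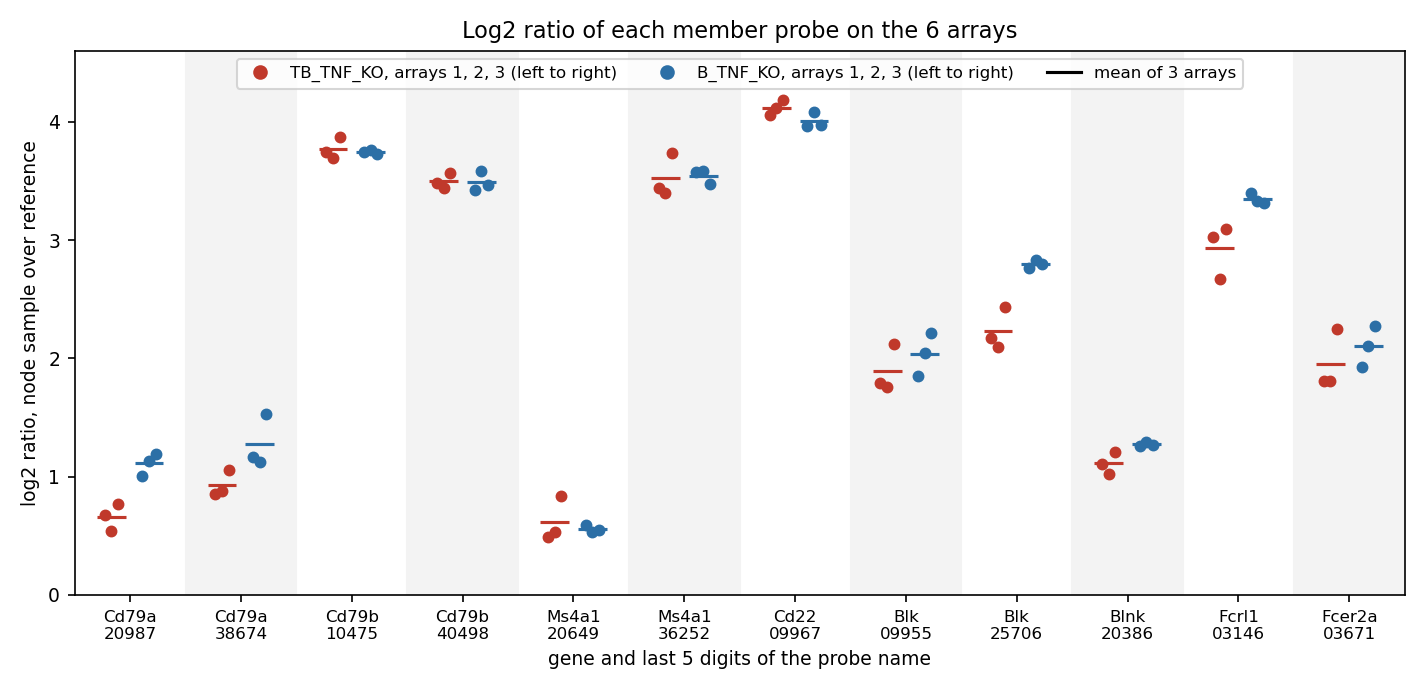
Log2 ratio of node sample over reference (y axis) for each of the 12 member probes (x axis), with TB_TNF_KO arrays 1 to 3 left of B_TNF_KO arrays 1 to 3 and a line at the mean of the 3 arrays. The groups do not overlap for both Cd79a probes, Blk probe A_66_P125706, Blnk and Fcrl1, and they overlap for the 7 other probes.

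Among the signalling chains, both Cd79a probes had groups that did not overlap, with TB_TNF_KO lower, while those of the Cd79b probes overlapped. Cd79a encodes the immunoglobulin alpha chain of the receptor. Its first probe, A_66_P120987, had log2 ratios of 0.67, 0.54 and 0.77 in TB_TNF_KO and 1.01, 1.13 and 1.19 in B_TNF_KO. All TB_TNF_KO arrays lay below all B_TNF_KO arrays, at 0.69 ± 0.11 (SD, n = 2) and 1.11 ± 0.10 (SD, n = 3). The difference was -0.42 (SE 0.08, adjusted p = 0.074 in limma). The second probe, A_66_P138674, gave 0.85, 0.88 and 1.06 in TB_TNF_KO and 1.16, 1.13 and 1.53 in B_TNF_KO, again without overlap, and a difference of -0.31 (SE 0.13, adjusted p = 0.334 in limma). With the replicate number as a block over the 6 arrays both Cd79a probes passed in limma (-0.45, adjusted p = 0.0179, and -0.34, adjusted p = 0.0279). That fit counts TB_TNF_KO arrays 1 and 2 as 2 samples, and if they hold 1 RNA its p-values are too small. The sample channel alone differed by -0.35 (SE 0.09, adjusted p = 0.0949 in limma) at the first probe, without overlap, and by -0.21 (SE 0.13) at the second. With the block the first passed there (-0.35, adjusted p = 0.0446). Both Cd79a probes were the dimmest members in the sample channel, and the second lay below the array median on some arrays of each group. Background-subtracted intensities were 151 to 187 in TB_TNF_KO and 229 to 342 in B_TNF_KO for the first. They were 117 to 170 and 162 to 267 for the second, beside array medians of 144 to 166 and 159 to 203. Without background subtraction the log ratio differences were smaller, at -0.22 (adjusted p = 0.191 in limma) for the first probe and -0.14 (adjusted p = 0.538 in limma) for the second. In the reference channel, whose RNA all arrays shared, the first and second Cd79a probes differed by 0.01 and 0.05.

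Cd79b encodes the partner chain, immunoglobulin beta. Its probe A_66_P110475 read 3.74, 3.69 and 3.87 in TB_TNF_KO and 3.75, 3.76 and 3.72 in B_TNF_KO, so the groups overlapped. The difference was 0.05, with a 95% interval of the fit from -0.09 to 0.19, and -0.11 to 0.13 over the alternatives run. The second Cd79b probe gave 3.48, 3.44 and 3.57 in TB_TNF_KO and 3.42, 3.58 and 3.47 in B_TNF_KO, a difference of 0.03 (95% interval -0.14 to 0.19). The intervals of the Cd79b probes do not reach the -0.42 of the first Cd79a probe, whose own 95% interval was -0.61 to -0.24. That of the second Cd79a probe, -0.64 to 0.02, overlaps both Cd79b intervals, and the difference between the genes was not tested.

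Of the surface molecules, Fcrl1 had groups that did not overlap, with TB_TNF_KO lower, while those of Ms4a1, Cd22 and Fcer2a overlapped. Fcrl1 encodes an Fc receptor-like protein of B cells with activating tyrosine motifs. Its log2 ratio was 3.03, 2.67 and 3.09 in TB_TNF_KO and 3.40, 3.33 and 3.31 in B_TNF_KO. The groups did not overlap, with TB_TNF_KO array 2 the lowest, and the difference was -0.38 (SE 0.08, adjusted p = 0.0967 in limma). With the replicate block it was -0.42 and passed (adjusted p = 0.0482), which again rests on counting 6 arrays. In the sample channel alone Fcrl1 was the member that passed. Its log2 intensity there was 9.78, 9.53 and 9.97 in TB_TNF_KO and 10.48, 10.40 and 10.52 in B_TNF_KO. The fall of 1.57-fold (-0.65, SE 0.10, adjusted p = 0.0485 in limma) did not pass when any single array was left out (adjusted p 0.0625 to 0.130). Nor did it pass without TB_TNF_KO arrays 1 and 2 together (-0.50, adjusted p = 0.263) or without the third pool of each group (-0.78, adjusted p = 0.204). The reference channel of the Fcrl1 probe differed in the same direction, at 7.53, 7.56 and 7.71 on the TB_TNF_KO arrays and 8.13, 8.09 and 8.30 on the B_TNF_KO arrays (-0.55, adjusted p = 0.115 in limma). The share of this shift in the sample channel result was not tested.

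Ms4a1 encodes CD20. Its brighter probe, A_66_P136252, gave 3.44, 3.39 and 3.74 in TB_TNF_KO and 3.57, 3.59 and 3.48 in B_TNF_KO. The difference was 0.03 (95% interval -0.21 to 0.27), and it changed sign in 8 of 22 alternatives. Some of the 22, such as the filters, cannot change a difference. The other Ms4a1 probe had 0.49, 0.53 and 0.83 in TB_TNF_KO and 0.59, 0.53 and 0.55 in B_TNF_KO (0.12, 95% interval -0.12 to 0.35). At both probes TB_TNF_KO array 3 was the highest of the 6 arrays. Cd22, the inhibitory sialic acid-binding coreceptor, read 4.05, 4.12 and 4.18 in TB_TNF_KO and 3.97, 4.09 and 3.97 in B_TNF_KO. Its difference of 0.12 (95% interval -0.02 to 0.27, adjusted p = 0.380 in limma) kept its sign under every alternative for the log ratio, between 0.03 and 0.17, and never passed. Its reference channel was lower on every TB_TNF_KO array (-0.22), while its sample channel differed by 0.17. Fcer2a, the low-affinity IgE receptor CD23, gave 1.80, 1.81 and 2.24 in TB_TNF_KO and 1.93, 2.10 and 2.27 in B_TNF_KO. It differed by -0.08 in the log ratio (95% interval -0.45 to 0.30) and by 0.12 in the sample channel alone, so its sign was not settled.

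Within the cell, the 2 Blk probes disagreed. Blk encodes a Src family kinase of B cells. Probe A_66_P125706 had log2 ratios of 2.17, 2.10 and 2.44 in TB_TNF_KO and 2.76, 2.83 and 2.79 in B_TNF_KO. The groups were apart, and the difference of -0.51 (SE 0.09, adjusted p = 0.0733 in limma) was the largest of the 12. With the replicate block it was -0.56 and passed (adjusted p = 0.0188 in limma). In the sample channel alone it was -0.47 (SE 0.13, adjusted p = 0.109 in limma), and with the block -0.54 (adjusted p = 0.0302 in limma). Both blocked results again rest on counting TB_TNF_KO arrays 1 and 2 as 2 samples. Probe A_66_P109955 had 1.79, 1.75 and 2.12 in TB_TNF_KO and 1.85, 2.05 and 2.21 in B_TNF_KO, with overlap, and differed by -0.09 (SE 0.14). The probes thus lay 0.42 apart in the log ratio. For the second probe the sample channel differed by -0.22 and the reference channel by -0.33 (adjusted p = 0.115 in limma), and its reference channel was lower on each TB_TNF_KO array than on any B_TNF_KO array. The sample channel alone therefore put both Blk probes lower in TB_TNF_KO, by different amounts. Blnk, the adaptor, read 1.11, 1.02 and 1.21 in TB_TNF_KO and 1.26, 1.29 and 1.27 in B_TNF_KO. The groups did not overlap, but the difference of -0.14 (SE 0.06, adjusted p = 0.315 in limma) did not pass, and in the sample channel alone it was -0.07 with overlap.

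In the sample channel alone, quantile normalised, 6 of 12 probes were lower and 6 higher, beside 51.4% and 48.6% of all probes, with a median of -0.01, beside -0.0048 over all probes. This split depended on the scaling and on 1 array. With 75th percentile scaling 10 of 12 were lower, with a median of -0.16 beside 0.098 over all probes, and without TB_TNF_KO replicate 3 likewise 10 of 12, with a median of -0.17. At the adjusted threshold 1 member was lower, where 0.76% of all probes were lower and 0.616% higher, and at an unadjusted p under 0.05 in limma 3 were lower and 0 higher, where 11.9% of all probes were lower and 10.7% higher. The groups did not overlap, with TB_TNF_KO lower, for 3 member probes (Cd79a, Blk and Fcrl1), and for 17.6% of all probes. They did not overlap with TB_TNF_KO higher for 0 members and 14.9% of all probes. In the reference channel 8 member probes were lower and 4 higher, beside 57.3% and 42.7% of all probes, with a median of -0.10, beside -0.02 over all probes. At the adjusted threshold in limma 0 members passed there, and 0% of all probes. At an unadjusted p under 0.05 in limma 2 members and 14.5% of all probes were lower, and 0 members and 8.73% of all probes higher. The groups did not overlap, with TB_TNF_KO lower, for 3 members (Cd22, Blk and Fcrl1) and 19.9% of all probes, and with TB_TNF_KO higher for 0 members and 11.2%. Lower values of Cd79a and of Blk probe A_66_P125706 were thus seen in the sample channel, with a reference channel difference of 0.01 for Cd79a and -0.18 for Blk.

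**Figure D2:**
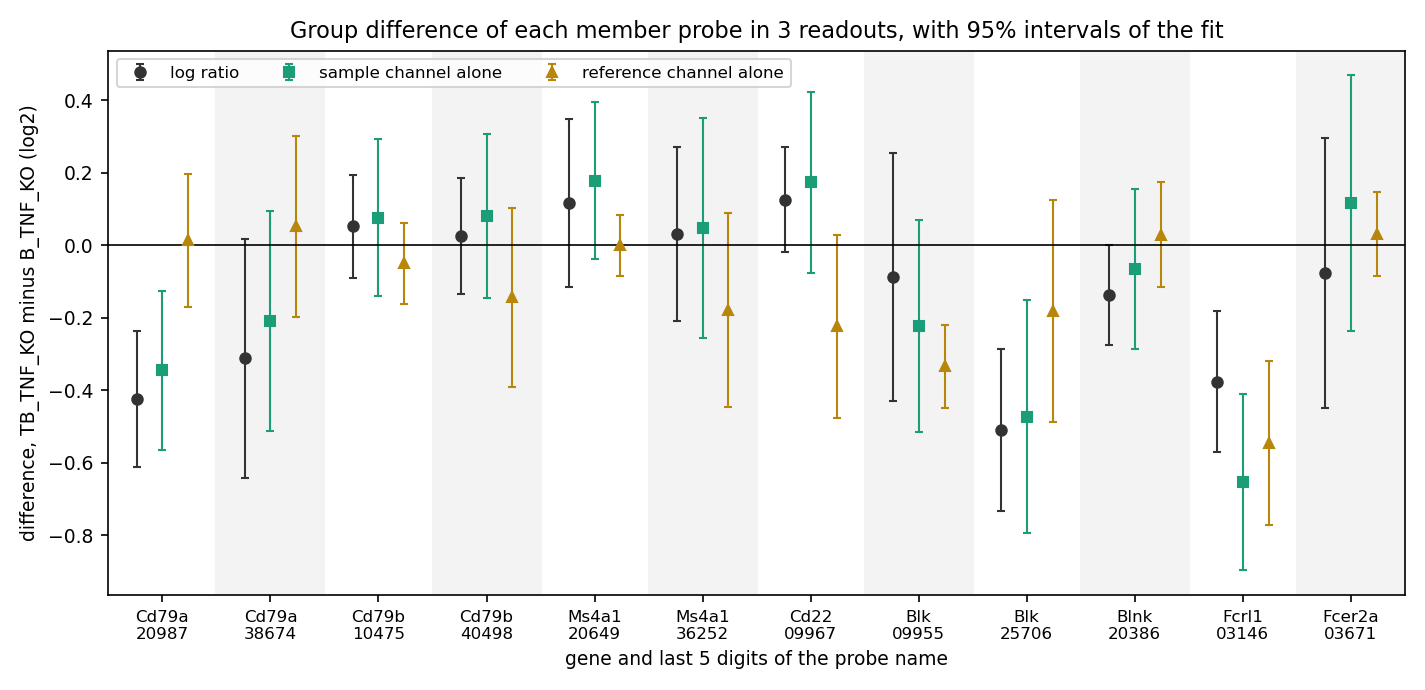
Difference TB_TNF_KO minus B_TNF_KO on the log2 scale (y axis) for each member probe (x axis) in the log ratio, the sample channel alone and the reference channel alone, with 95% intervals of the limma fit as bars. Cd79a probe A_66_P120987, Blk probe A_66_P125706 and Fcrl1 lie below 0 with their whole interval in both the log ratio and the sample channel, and Fcrl1 and Blk probe A_66_P109955 do so in the reference channel.

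**Figure D3:**
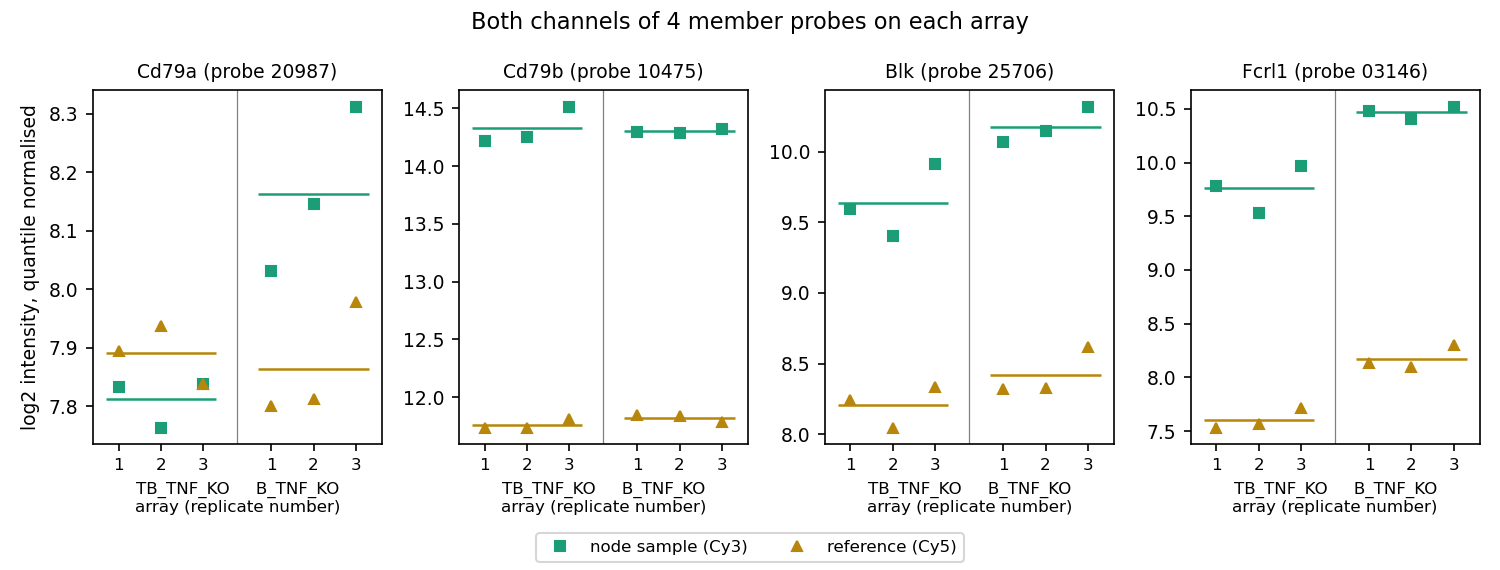
Quantile-normalised log2 intensity (y axis, a separate scale in each panel) of the node sample (squares) and the reference (triangles) on each array (x axis), TB_TNF_KO left of B_TNF_KO, with lines at group means, for Cd79a, Cd79b, Blk and Fcrl1. Fcrl1 is lower in both channels of every TB_TNF_KO array, whereas the Cd79a reference values of the groups overlap.

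The pools of a group were not alike. Averaged over the brightest probe of each gene and centred on the 6 arrays, the members' log2 ratio was -0.14, -0.22 and 0.05 on TB_TNF_KO arrays 1, 2 and 3, and 0.07, 0.13 and 0.11 on the B_TNF_KO arrays. TB_TNF_KO array 3 thus lay near the B_TNF_KO arrays. The Y-linked Eif2s3y split the TB_TNF_KO arrays in the same way, at -2.81, -2.84 and 1.49 on arrays 1, 2 and 3. Within TB_TNF_KO the low Y-linked signal and the lower member values therefore cannot be told apart. On B_TNF_KO arrays 1, 2 and 3 Eif2s3y read 0.59, 0.88 and 1.83. Between arrays 1 and 2 of the groups, Y-linked signal and strain therefore cannot be told apart either. Between the third pools alone 7 of 12 probes were lower in TB_TNF_KO, with a median of -0.04, and between arrays 1 and 2 of the groups 11 of 12 were lower, with a median of -0.19. In the sample channel alone these were 5 of 12 (median 0.09) and 11 of 12 (median -0.17). Cd79a A_66_P120987 differed by -0.43 between the third pools and by -0.46 between the others. For Blk A_66_P125706 these values were -0.36 and -0.66, and for Fcrl1 -0.22 and -0.52. Both probes of Ms4a1 and of Cd79b were higher in TB_TNF_KO between the third pools (log ratio 0.28 and 0.26 for Ms4a1, 0.15 and 0.10 for Cd79b) and lower between the others (-0.05 and -0.16 for Ms4a1, -0.04 and -0.04 for Cd79b). Cd22 was higher in both, by 0.21 and 0.06.

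Transcripts of other tissues also differed between pools. The summed sample level of 13 measured exocrine pancreas genes of 19 listed was 333207, 337652 and 4818 on the TB_TNF_KO arrays and 106680, 288117 and 4579 on the B_TNF_KO arrays, so array 3 was low in both groups. That of 8 measured adipocyte genes of 9 was 52502, 48250 and 84747 in TB_TNF_KO and 78062 to 82601 in B_TNF_KO, lowest on TB_TNF_KO arrays 1 and 2. Markers of B cells other than the members (14 of 19 measured) summed to 26798 to 28956 in TB_TNF_KO and 24809 to 27436 in B_TNF_KO, overlapping, and 8 of 14 were lower in the log ratio. T cell markers (13 of 14 measured) overlapped too, at 51708 to 54586 in TB_TNF_KO and 49257 to 53921 in B_TNF_KO. In the log ratio 11 of 13 T cell markers were lower in TB_TNF_KO, where 54.9% of all probes were. At an unadjusted p under 0.05 in limma 3 T cell markers were lower and 0 higher, and 4 B cell markers were lower and 1 higher. Over all probes 11.1% were lower and 5.02% higher at that threshold. The median was -0.09 to 2 decimals for both lists, and in the sample channel alone -0.03 for T cells and 0.05 for B cells. Plasma cell markers (6 of 11 measured) gave 8384 to 9342 in TB_TNF_KO and 8336 to 9365 in B_TNF_KO. Markers of follicular dendritic cells, the stromal cells of B cell follicles (11 of 13 measured), summed to 57723 to 64868 in TB_TNF_KO, below the 66828 to 69958 in B_TNF_KO. In the log ratio 10 of these 11 were lower and 1, Lrat, higher, with a median of -0.14. At the adjusted threshold in limma 1 was lower, where 0.0147% of all probes were. The groups overlapped in the log ratio for Clu, Fcgr2b, Madcam1 and Mfge8. No summed list was at 0. The part of these transcripts in the members' differences was not tested.

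Of 41 listed other genes of the B cell receptor pathway, 23 were measured and 20 were lower in TB_TNF_KO by their brightest probe in the log ratio, where 54.9% of all probes were. At an unadjusted p under 0.05 in limma 6 were lower and 0 higher (11.1% and 5.02% of all probes), and 0 passed the adjusted threshold in either direction. The list median was -0.10, beside -0.01 over all probes, and in the sample channel alone 17 were lower and 6 higher with a median of -0.05. The summed sample level of the list was 56485, 58280 and 65660 on the TB_TNF_KO arrays and 61632, 64363 and 66869 on the B_TNF_KO arrays, so TB_TNF_KO array 3 lay within the B_TNF_KO range. The genes at the unadjusted threshold were Lilrb4a, an inhibitory receptor, at -0.49, Ptprc, the CD45 phosphatase that activates Src kinases, at -0.44, Fcrla at -0.36, Plcg2, the phospholipase C downstream of BLNK, at -0.22, Cd5, a surface glycoprotein of T cells and some B cells, at -0.17, and the exchange factor gene Vav1 at -0.13. Lilrb4a had log2 ratios of -1.80, -1.90 and -1.88 in TB_TNF_KO and -1.44, -1.39 and -1.29 in B_TNF_KO. It was the gene of this list that passed in the sample channel alone (-0.70, adjusted p = 0.0485 in limma). Ptprc read 1.95, 1.81 and 2.37 in TB_TNF_KO and 2.60, 2.49 and 2.62 in B_TNF_KO, so array 3 of TB_TNF_KO was again the nearest to the other group. A second Cd5 probe differed by 0.31, against -0.17 at the first. Btk differed by -0.12, Syk by -0.05 and Lyn by 0.03, with overlapping groups at these probes. A second Syk probe differed by 0.14, with TB_TNF_KO higher on all arrays. These 3 were chosen for their place in the pathway.

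**Figure D4:**
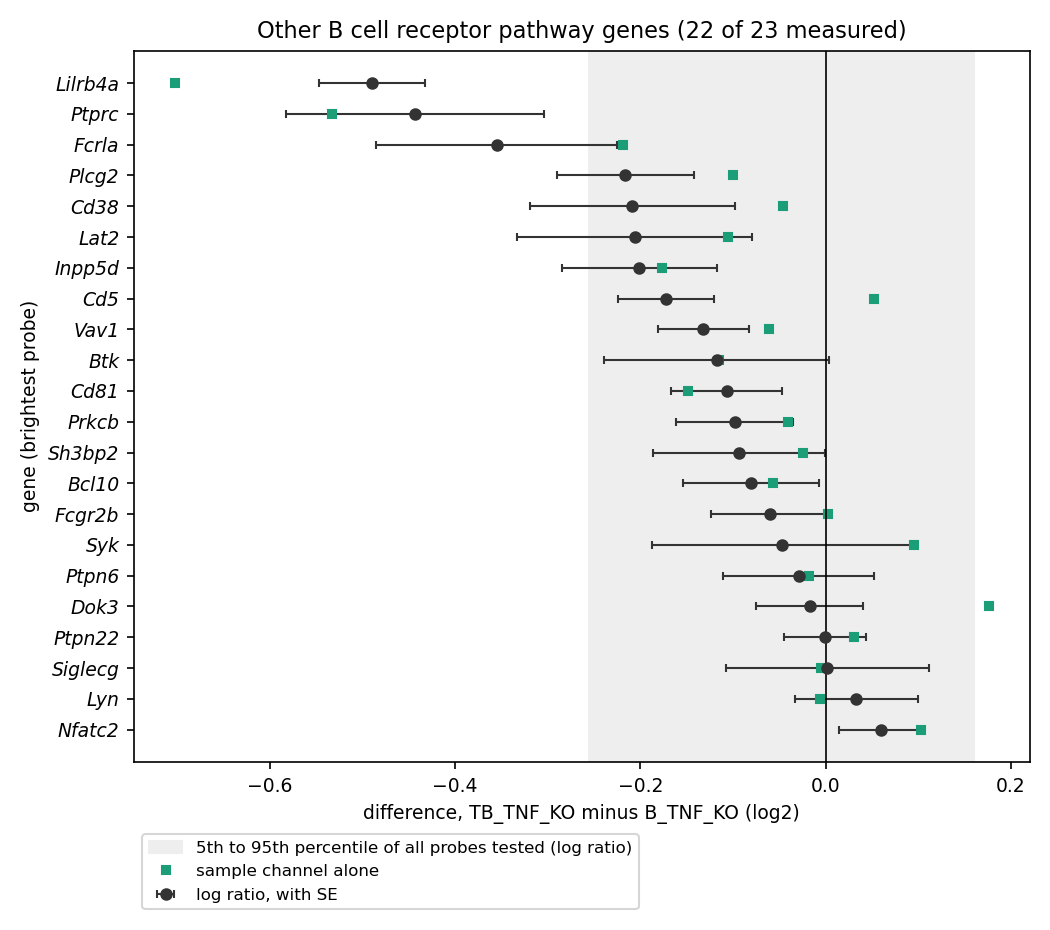
Difference TB_TNF_KO minus B_TNF_KO (x axis, log2) of the brightest probe of 22 of the 23 other measured B cell receptor pathway genes (y axis), as log ratio with its SE (circles) and in the sample channel alone (squares). The shaded band spans the 5th to 95th percentile of all probes (-0.26 to 0.16), and Lilrb4a, Ptprc and Fcrla lie below it in the log ratio.

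Over 6 arrays the genes outside the members whose centred log2 ratios lay nearest to the members' mean profile were Gclc, Dhx36, Nop9, Api5 and Mical1, at root mean square distances of 0.019 to 0.026 among 12158 candidates. Of the members, Blnk lay nearest to that mean (0.037) and Blk A_66_P125706 farthest (0.180).

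The letters ACTTACCT, which read AGGTAAGT on the other strand, occur in both Cd79a probes and in Blk A_66_P125706, hence in 3 of 12 member probes but 2 separate sequences, and in 43 of 41006 probes on the array (0.105%). AGGTAAGT is the textbook consensus at the start of an intron, and where these probes lie relative to an exon end was not determined here. The 40 other probes with these letters had a median difference of -0.001 in the log ratio, with 20 of 40 lower, beside -0.01 over all probes. This feature was chosen after the values were seen.

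RefSeq promoter sequences (GRCm38.p6) matched 6 of the 9 genes in 8 windows, of which the 250 bases before the start of the gene were searched. On both strands, the octamer ATTTGCAT, bound by POU2F factors, was in the Blnk window and in 1.6% of 32851 windows. The Ets core GGAAGT was in windows of Blnk, Cd79a, Cr2, Fcer2a and Fcrl1 and in 19.7% of all windows. The EBF1-type motif, TCCC and GGGA 2 bases apart, was in the Cd22 window and in 0.8%, the E box CAGGTG in windows of 5 genes and in 17.2%, and the Ets-IRF composite, GGAA and GAAA 2 bases apart, in 0 member windows and in 2.3%. The Ets core and the composite share the letters GGAA. The 150 bases before the start are shown for Cd79a and Fcrl1, whose groups did not overlap in the log ratio, and for Cd22, whose groups did, with matches in capitals.
Cd79a chr7:24897347-24897496 (+ strand): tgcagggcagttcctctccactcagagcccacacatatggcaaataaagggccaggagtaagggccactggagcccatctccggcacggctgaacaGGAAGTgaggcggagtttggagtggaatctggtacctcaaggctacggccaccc
Fcrl1 chr3:87376237-87376386 (+ strand): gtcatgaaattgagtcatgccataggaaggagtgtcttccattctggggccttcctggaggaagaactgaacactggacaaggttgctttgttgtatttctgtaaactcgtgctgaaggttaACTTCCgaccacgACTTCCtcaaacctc
Cd22 chr7:30879029-30879178 (- strand): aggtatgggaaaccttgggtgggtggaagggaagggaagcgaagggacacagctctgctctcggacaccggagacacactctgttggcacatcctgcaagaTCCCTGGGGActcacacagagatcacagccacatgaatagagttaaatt
Cd79a and Fcrl1 hold the Ets core, in Fcrl1 as its reverse complement at both places, and Cd22 holds the EBF1-type letters. These are matches of letters and not binding sites.

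**Figure D5:**
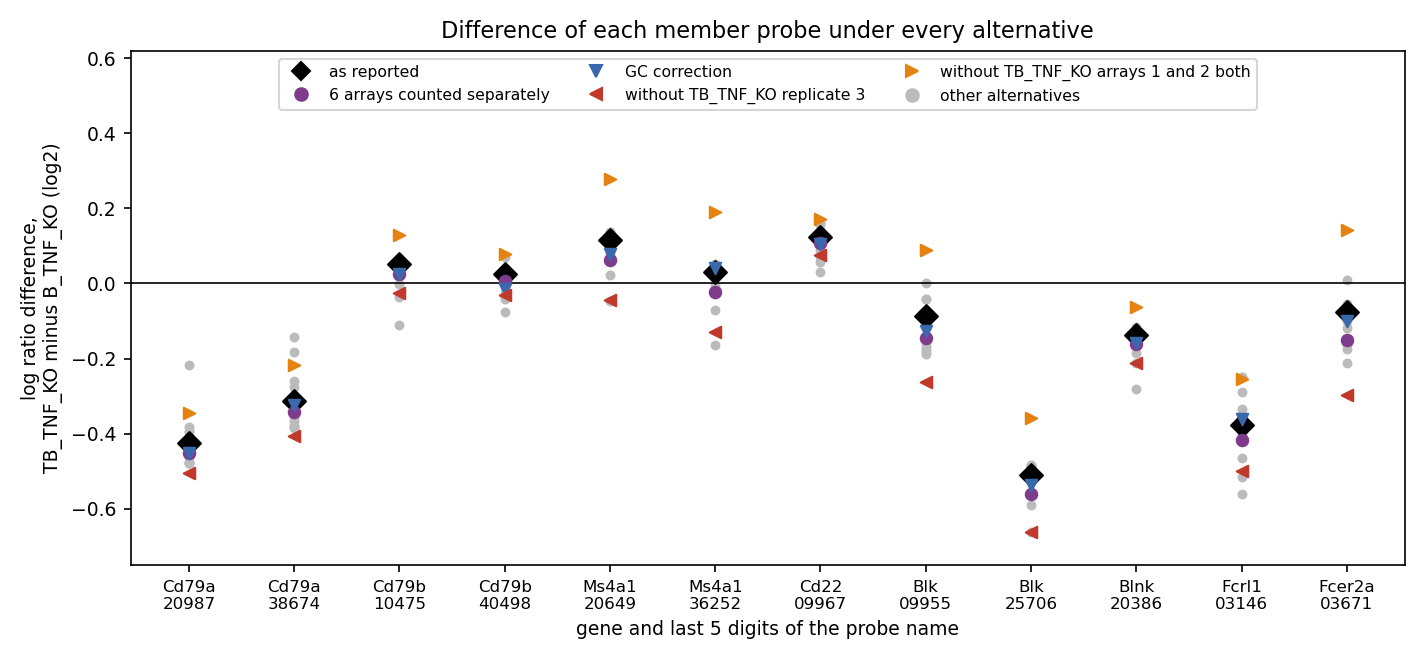
Log ratio difference TB_TNF_KO minus B_TNF_KO (y axis, log2) of each member probe (x axis) as reported and under each alternative. The values of both Cd79a probes, Blk probe A_66_P125706, Blnk and Fcrl1 stay below 0 and those of Cd22 above 0, and the other 6 probes cross 0.

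The direction of 6 probes held under every log ratio alternative run, namely both Cd79a probes, Blk A_66_P125706, Blnk, Fcrl1 and Cd22. The alternatives on filters, probe choice and spread model leave the difference of a probe as it is, so they could not change a direction. Cd79a A_66_P120987 lay between -0.50 and -0.22, Blk A_66_P125706 between -0.66 and -0.36, and Fcrl1 between -0.56 and -0.25. Without TB_TNF_KO arrays 1 and 2, which leaves 1 TB_TNF_KO array, the median over the members was 0.08, against -0.08 with them. That median was -0.00081 without B_TNF_KO replicate 3 and -0.04 between the third pools alone, so its direction depended on the arrays used in both groups.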

How the data were processed

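Agilent Feature Extraction A.7.5.1 made the deposited scanner files, per the file headers. They hold, for each channel, the spot intensity and that of the local background, and the software's log10 ratio of Cy5 over Cy3. The deposited series table holds log10 values that follow the processed Cy3 signal (r across probes 0.993 to 0.996, column medians 2.98 to 2.99). Its group differences for the member probes nonetheless equal those of the deposited log ratio (Fcrl1 A_66_P103146 -0.25 with both, beside -0.65 in the sample channel alone), so the reference channel enters these values. Their background step and scaling are not given in the sources used here.

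Intensities were corrected with normexp (offset 50) and normalised by loess within arrays in limma 3.58.1 (R 4.3.3), with control spots at weight 0 and 228 values of 210 outlier spots left out. Log2 ratios of sample over reference were computed from the deposited intensities. Each channel alone was quantile normalised. A probe was tested when at least 3 arrays read it well above background in the sample channel and it had values in both groups, which left 40778 of 41006 probes, and 15294 probes carried a symbol through RefSeq. Per array, 95.9% to 99.6% of spots exceeded background clearly in the sample channel. The number of arrays limits the precision. Groups were compared with lmFit and eBayes, with no block, as the labels do not say that a number marks a shared animal, litter or day, and the blocked fit is printed where it changes a call.

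The members, lists and rules were chosen with earlier results of these data known. All member probes are named. Of the listed pathway genes, the 6 with the largest log ratio difference at an unadjusted p under 0.05 are named, with any that passed, and of other genes the 5 with profiles nearest to the members' mean. In the pathway list 1 gene is counted but not reported here.

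Same-numbered arrays of the groups deviated together from their group means (r across probes 0.134, 0.525 and 0.621), weakly for array 1. The replicate numbers were therefore used as a block in an alternative fit, while the main fit did not pair the samples. TB_TNF_KO array 1 correlated more with B_TNF_KO array 2 (0.426). The pairing in the blocked fit comes from this check, since the labels do not say what a number shares. Alternatives covered background, normalisation, the deposited table, filters, probe choice, spread model, array weights, GC content, the replicate block and each array left out. Plots were made in matplotlib 3.10.9 (Python 3.11.15).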

Additional observations from a re-analysis of the deposited data

How the results depend on the processing

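No member reversed a call under any alternative run, and the cause of the changes below was not tested, except that leaving out arrays leaves fewer samples. In the log ratio, as reported, 0 probes were higher, 6 lower and 0 of them members. Counting the 6 arrays separately gave 595 higher, 1861 lower and 2 members (Cd79a A_66_P120987, adjusted p = 0.0181, and Blk A_66_P125706, adjusted p = 0.0163). The replicate block gave 738 higher, 2533 lower and 4 members, and with the GC correction 586, 2417 and 3, Fcrl1 being lost. Trend and robust empirical Bayes gave 146 higher and 408 lower, and array weights 100 and 314. Lower probes numbered 0 without background subtraction, 1 with the scanner software's log ratio, 0 with the deposited table, and 0 to 5 when each replicate was left out. They numbered 0 in both alternatives added after seeing the data, without TB_TNF_KO arrays 1 and 2 and without the third pools. In the sample channel alone, 251 higher, 310 lower and 1 member as reported became 1431, 1735 and 3 with the 6 arrays, 1370, 2147 and 3 with the replicate block, and 891 higher and 683 lower with 75th percentile scaling. The GC correction gave 245 higher and 192 lower. Leaving out each replicate gave 0 to 1 higher, 0 to 2 lower and 0 members, and both added alternatives gave 0 in each. The reference channel median of the members, -0.10, was -0.157 to -0.062 when each replicate was left out, -0.033 without TB_TNF_KO arrays 1 and 2 and -0.141 without the third pools. The block changed no call other than those of Cd79a, Blk and Fcrl1. The member median in the log ratio, -0.08, was -0.24 to -0.00081 when each replicate was left out, and in the sample channel alone, -0.0093, it was -0.17 to 0.0098. By the scanner's call every member probe was well above background, but both Cd79a differences were smaller without background subtraction.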
